A study of Mus musculus with 12 samples.

Results

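The comparison described here sets luminal against basal epithelial cells of the old mouse prostate, and asks which identity and immune genes separate the 2 layers at 24 months of age. Its members are 6 of the 12 libraries of the series, namely the 3 labelled luminal and the 3 labelled basal at 24 months, chosen by their labels alone. All mice were C57BL/6 animals without a stated treatment or transgene, and each library was made from the sorted prostate cells of 2 mice of equal age, so a library averages over its animals. The other 6 libraries hold the same cell types at 3 months, and were used for the spread of the fit and to ask whether a difference between the layers changed with age. Neither the prostate lobes nor the sorting markers are named in the sources used here. The labels call the libraries of a group replicates, so the p-values measure the spread between libraries, each from a pool of 2 mice. That spread holds the sampling of RNA molecules in each library as well as differences between the pools.

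The prostate gland is lined by a secretory luminal layer that rests on a layer of basal cells. Basal cells carry keratins 5 and 14 and the transcription factor p63 and anchor the epithelium to its basement membrane, while luminal cells carry keratins 8 and 18, depend on androgen and release the proteins of the prostatic fluid. Both layers can present peptides on MHC class I, answer interferon and release cytokines, and in many mucosal tissues the luminal surface also carries antibodies and antimicrobial proteins into the lumen.

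The 6 old libraries held 20401687 to 25430823 counted reads over 12585 to 13738 genes above 0. Reads came in multiples, and the estimated number of distinct fragments was 669232 to 1470069 in basal and 543503 to 728632 in luminal libraries, so genes with low CPM (counts scaled to library size) rest on few molecules. Log2 CPM of the 6270 genes with a mean of at least 20 CPM over the 12 libraries correlated at r = 0.919 to 0.967 within a layer and at 0.435 to 0.486 between the layers. Of 24054 genes in the tables, 14201 passed the filter on low counts. A gene was called where the Benjamini-Hochberg adjusted p of edgeR's quasi-likelihood test was under 0.05. By that rule luminal cells had 2226 higher genes (15.7%) and 2802 lower ones (19.7%), and 3691 of these 5028 calls (35.4% of the tested genes) were at least 2-fold on the fitted log2 scale. The 3 luminal libraries lay above all 3 basal libraries for 25.2% of the genes tested and below all of them for 27.9%. In bulk RNA of this kind, fewer cells of a type and less RNA per cell cannot be told apart.

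Basal markers separated the layers almost completely. Keratin 5 (Krt5) was at 2221, 2212 and 2148 CPM in the basal and at 9.28, 7.09 and 12.4 CPM in the luminal libraries, which is 229-fold lower (log2 difference, luminal minus basal, -7.84 ± 0.21 SE, adjusted p = 1.5e-11). Krt14, its filament partner, was at 2991, 2971 and 2648 CPM against 20.7, 20.6 and 22.5 CPM, or 135-fold lower in luminal cells (adjusted p = 1.2e-10). The labels of the 6 libraries and these defining keratins went together in each library. Trp63, which encodes p63, was at 32.4, 37.7 and 39.2 CPM in basal cells and had no distinct fragment in luminal cells, so it was at least 23.6-fold lower there (adjusted p = 4.5e-08). The limit behind such a bound is 3 fragments over a group, which is 0.911 CPM in old basal and 1.54 CPM in old luminal cells, and it covers counting error only because the reads carry no molecular identifiers.

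Of 25 basal identity genes, all tested, 22 (88.0%) were lower in luminal cells and 3 were not called. The median log2 difference of the list was -5.06, against 0 over all tested genes. The 3 that did not follow were Krt6a, a keratin of activated epithelium, at 80.0, 90.5 and 21.4 CPM in basal and 104, 103 and 43.9 CPM in luminal libraries, Dkk3, a secreted Wnt modulator, at 5.42 to 14.98 against 12.1 to 16.2 CPM, and Igfbp3, an IGF-binding protein, at 12.02 to 35.4 against 11.03 to 18.1 CPM. The libraries of the layers overlapped for each of them, with adjusted p of 0.61, 0.34 and 0.19. Krt15, a keratin of basal and progenitor cells, was an intermediate case. Krt15 stood at 3928, 3970 and 3838 CPM in basal libraries and still at 567, 490 and 242 CPM in luminal libraries, a 9.04-fold difference (adjusted p = 7.6e-08), while Krt17 was at 2574 to 3488 against 20.3 to 40.05 CPM, a 112-fold difference. Per transcript length, Krt15 was the highest of these 4 keratins in old basal cells by mean, at 4220 ± 144 TPM (SD, n = 3), the length-scaled unit of the deposited tables, followed by Krt17 (3859 ± 689), Krt14 (3215 ± 195) and Krt5 (1828 ± 49.4). Krt15 and Krt17 did not differ beyond their spread, and in luminal cells Krt15 was at 404 ± 168 TPM against 7.03 ± 2.42 TPM for Krt5.

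**Figure D1:**
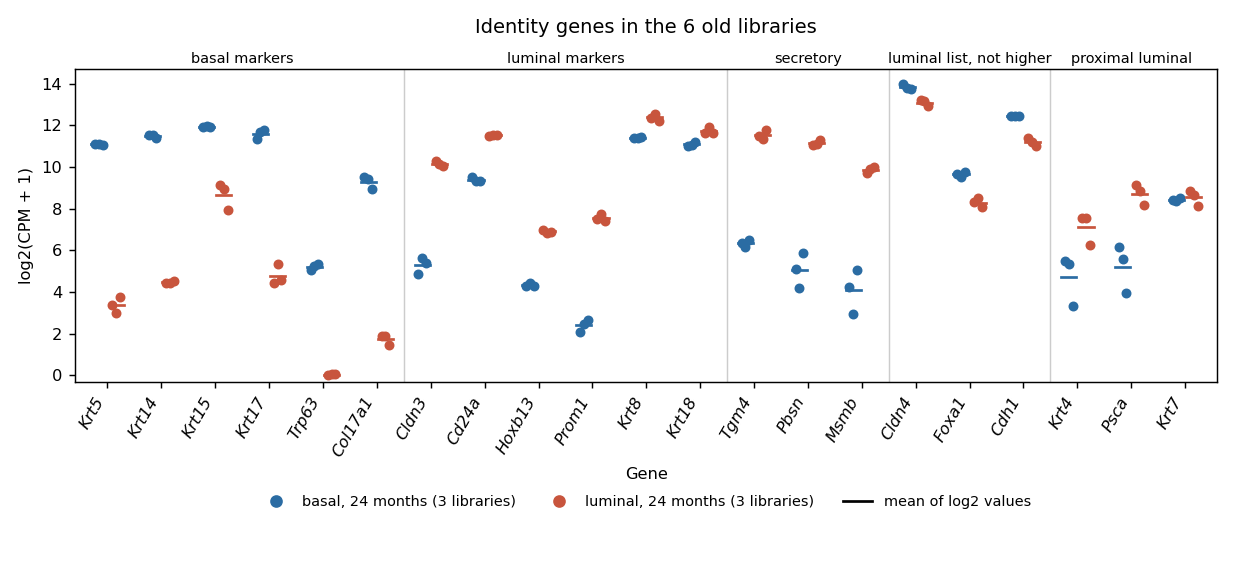
Level of 21 identity genes in the 6 old libraries, as log2(CPM + 1) on the vertical axis; each point is a library, bars are the mean of the log2 values, blue is basal and red luminal. Krt5, Krt14 and Trp63 are far lower in luminal libraries, Cldn3, Tgm4 and Pbsn far higher, and Cldn4, Foxa1 and Cdh1 are lower in luminal cells although they were listed as luminal genes.

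Luminal identity genes were mostly higher in luminal cells, by folds that ranged widely. Cldn3, a tight junction claudin, was at 28.2, 49.5 and 40.8 CPM in basal and 1246, 1137 and 1048 CPM in luminal libraries, 28.9-fold higher (log2 4.86, adjusted p = 2.6e-09). The luminal libraries also lay above every basal library for Cldn8, Cldn10, Prom1, Cd24a, Hoxb13 and Tmprss2. Prom1, a surface protein of luminal progenitor cells, was at 3.30, 4.49 and 5.22 against 183, 216 and 171 CPM (43.8-fold), and the homeobox factor Hoxb13 at 18.7, 20.7 and 18.3 against 124, 115 and 119 CPM (6.21-fold). Spdef, an ETS factor of secretory cells, was at 0.489 to 1.43 against 26.2 to 39.96 CPM (adjusted p = 0.00063), and Elf3 and Ehf of the same family were 3.25-fold and 1.67-fold higher. The luminal keratins differed less than Cldn3: Krt8 was at 2671, 2687 and 2788 CPM in basal and 5307, 5976 and 4758 CPM in luminal libraries (1.97-fold, adjusted p = 7.2e-07) and Krt18 was 1.54-fold higher. Per length, old basal cells held Krt8 RNA at 2782 ± 131 TPM, against 3215 ± 195 TPM for Krt14 (SD, n = 3).

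The luminal list followed its name in 16 of 20 genes, which were higher (80.0%); 3 were lower and 1 was not called, with a median log2 difference of 1.72. The 3 lower genes are widely used as luminal or epithelial markers. Cldn4, a claudin of both luminal and barrier epithelia, was at 16300, 14110 and 13560 CPM in basal and 9584, 9091 and 7683 CPM in luminal libraries, without overlap (1.67-fold lower, adjusted p = 3.9e-05). Foxa1, a pioneer transcription factor, was at 799, 733 and 880 against 315, 360 and 267 CPM (2.56-fold lower, adjusted p = 5.2e-07). Cdh1, E-cadherin, was at 5618, 5531 and 5529 against 2683, 2324 and 2052 CPM (2.36-fold lower, adjusted p = 8.7e-07).

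Secretory products were mostly luminal, with 17 of 19 tested genes higher (89.5%) and a median log2 difference of 5.61. Tgm4, the prostate transglutaminase that clots semen, was at 80.5, 70.9 and 91.0 CPM in basal and 2889, 2622 and 3498 CPM in luminal libraries (37.1-fold, adjusted p = 1.2e-10). Probasin (Pbsn), an androgen-driven lipocalin, was at 33.0, 17.1 and 57.3 against 2114, 2197 and 2554 CPM (63.9-fold), and Msmb, a seminal plasma protein, was 48.8-fold higher. The spermine-binding protein gene Sbp shows how unevenly basal libraries carried these RNAs: it was at 36.2, 31.7 and 345 CPM in basal and 9120, 6322 and 8839 CPM in luminal libraries. Basal replicate 3 was also the highest of its group for Pbsn, Msmb, Spink3 and Tgm4. The remaining tested pair, Sbpl and Npy, had no reads in any of the 6 old libraries.

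Androgen-regulated genes went with this in part. Of 23 tested, 13 were higher in luminal cells (56.5%) and 2 lower (8.70%), and 8 were not called. Azgp1 and Mme, a neutral endopeptidase, were 24.7-fold and 12.8-fold higher, and Fkbp5, a chaperone that answers steroid receptors, was 1.80-fold higher, a call lost in 5 of 21 other settings. The 2 lower genes were Ndrg1, at 825, 763 and 637 against 105, 98.2 and 90.0 CPM (7.59-fold, adjusted p = 5.4e-09), and Pmepa1, a dampener of TGF-beta signalling, which was 5.60-fold lower.

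Genes of proximal luminal cells, the part of the luminal layer near the urethra, were mixed: 12 of 19 were higher (63.2%), 2 lower and 5 not called. Markers of urothelium, the lining of the urethra and bladder, moved with them: the summed list was at 32.5 to 35.4 CPM in basal and 269 to 331 CPM in luminal libraries, and all 3 tested genes were called higher. Upk1a was at 4.57, 0.938 and 5.87 against 230, 188 and 170 CPM, Upk1b was 3.58-fold and Upk2 at least 4.72-fold higher, while Upk3a and Upk3b had no read. Their part in the proximal luminal result was not tested. Clu (clusterin) was at 200, 373 and 288 against 6633, 6928 and 6073 CPM and Krt19 at 392, 461 and 330 against 2395, 2491 and 1835 CPM. Gabrp and Ctse had no basal fragment and were at least 23.7-fold and 18.2-fold higher. By contrast, Krt7 was at 337, 331 and 362 against 459, 409 and 281 CPM (adjusted p = 0.54) and Ly6a (Sca-1) at 131, 175 and 139 against 220, 189 and 120 CPM (adjusted p = 0.38), and both overlapped between the layers. Psca and Krt4 were higher in luminal cells (adjusted p = 0.0048 and 0.020), but replicate 3 was the lowest library of each layer for both: Psca was at 70.1, 46.7 and 14.4 against 559, 464 and 288 CPM, and Krt4 at 44.4, 39.4 and 9.02 against 189, 187 and 75.0 CPM. The call of Krt4 was lost without basal replicate 3 (largest adjusted p over the settings 0.068) or luminal replicate 1.

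Adhesion genes divided by the kind of junction. Integrins and their hemidesmosome and focal adhesion partners were lower in luminal cells for 20 of 24 genes (83.3%, median log2 -2.11), and none of the other 4 was called (Itgb5, Itgb8, Plec and Cd151). Col17a1, the collagen that spans the hemidesmosome, was at 736, 684 and 486 against 2.74, 2.73 and 1.79 CPM (263-fold lower, adjusted p = 1.5e-11). Itga3 and Itgb4, which encode subunits of laminin-binding integrins, were 6.31-fold and 6.41-fold lower. Plec, the linker of keratin to the hemidesmosome, was at 961, 979 and 1139 against 951, 987 and 748 CPM, with overlapping groups (adjusted p = 0.29). Basement membrane genes were lower for 20 of 28 (71.4%), among them Lamb3 (57.1-fold), Lama3 (33.4-fold), Col4a1 (19.8-fold) and Hspg2 (18.0-fold). Only Lamb2 (1.76-fold) and Fn1 (fibronectin; 2.36-fold) were called higher in that list. Desmosome genes were lower for 6 of 9, with Pkp1 49.8-fold and Dsp 3.88-fold lower, while Pkp2 was 4.91-fold higher. Of 24 tight junction and polarity genes, 12 were higher in luminal cells, a larger share than the 15.7% of all tested genes. In that list 5 were lower (20.8%), close to the 19.7% of all tested genes. Next to Cldn4, Cldn1 was 7.22-fold, Pard3 4.80-fold and F11r 2.39-fold lower in luminal cells, against Cgnl1 19.1-fold and Tjp3 5.89-fold higher.

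**Figure D2:**
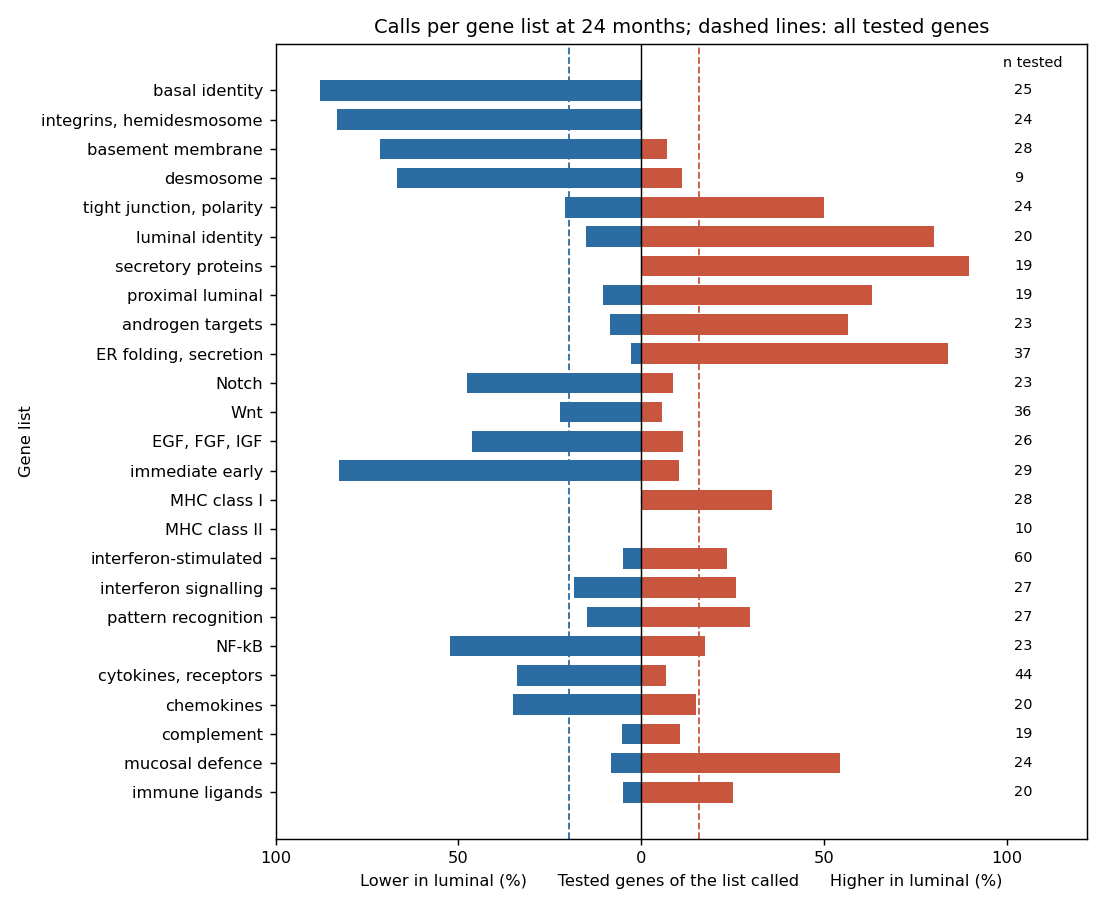
Share of tested genes in 25 lists that were called higher (red, to the right) or lower (blue, to the left) in old luminal cells, in percent; the number tested stands at the right, and dashed lines give the shares over all tested genes, 15.7% and 19.7%. Secretory, endoplasmic reticulum and luminal lists extend furthest to the right, and basal identity, integrin and immediate early lists furthest to the left.

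Among signalling genes, more were lower than higher in luminal cells. In the Wnt list, 8 of 36 were lower (22.2%), close to the 19.7% of all tested genes. Only 2 were higher (5.56%, against 15.7% of all tested genes), and 26 were not called. In the EGF, FGF and IGF list, 12 of 26 were lower in luminal cells and 3 higher. Egfr was at 324, 301 and 261 against 45.4, 29.8 and 14.9 CPM (9.82-fold lower) and its ligand gene Hbegf at 2762, 2651 and 2949 against 479, 461 and 388 CPM (6.30-fold lower). The related receptors ran the other way, with Erbb3 at 13.0, 12.7 and 11.4 against 124, 151 and 148 CPM (11.4-fold higher) and Erbb2 2.15-fold higher, each without overlap. In the Notch list, 11 of 23 were lower: the ligand genes Jag1 (48.2-fold), Jag2 (23.6-fold) and Dll1 (25.9-fold) and the receptors Notch1 (2.42-fold) and Notch2 (3.71-fold). Notch3 was the receptor that was higher in luminal cells, at 0.613, 1.96 and 1.34 against 26.5, 25.1 and 13.9 CPM (16.8-fold, adjusted p = 0.00096).

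The protein-making machinery of the secretory pathway was higher in luminal cells as a block. Of 37 genes of endoplasmic reticulum folding, translocation and degradation, 31 were higher (83.8%) and 1 lower, with a median log2 difference of 1.51. The chaperone Hspa5 (BiP) was at 2332, 1865 and 2446 against 4361, 4071 and 5112 CPM (2.04-fold, adjusted p = 6.7e-06), and Pdia6, a disulfide isomerase, was 5.25-fold higher. Agr2, the isomerase that folds mucins, was at 3.44, 0.122 and 3.84 against 208, 203 and 245 CPM (88.6-fold). The lower gene was Atf4, the transcription factor of the integrated stress response, at 1223, 973 and 982 against 715, 629 and 681 CPM (1.57-fold, adjusted p = 0.00022).

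Immediate early genes, which answer growth factors and stress within minutes, were the reverse. Of 29 tested, 24 were lower in luminal cells (82.8%) and 3 higher, and the list median was -1.11. Egr1 was at 2489, 1779 and 2087 against 404, 555 and 416 CPM (4.62-fold lower) and Fosl1 at 1848, 1564 and 1534 against 365, 334 and 213 CPM (5.42-fold lower). Jund, Btg2 and Klf2 were the higher ones, Klf2 at 11.3, 11.6 and 7.999 against 108, 88.3 and 89.2 CPM (9.24-fold).

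Antigen presentation by MHC class I was higher in luminal cells for part of its genes. B2m, the light chain that every class I molecule needs, was at 285, 340 and 334 CPM in basal and 3640, 4251 and 4173 CPM in luminal libraries. Every luminal library was far above every basal one, and the difference was 12.6-fold (log2 3.65 ± 0.12 SE, adjusted p = 6.6e-11). The heavy chain genes H2-K1 and H2-D1 differed less than B2m. H2-K1 was at 594, 660 and 594 against 1101, 994 and 981 CPM (1.67-fold, adjusted p = 0.00070), and H2-D1 at 518, 498 and 529 against 898, 865 and 774 CPM (1.64-fold, adjusted p = 4.4e-05), both without overlap. Per length, B2m was at 750 ± 91.7 TPM in basal and 8127 ± 636 TPM in luminal cells (SD, n = 3), while H2-K1 was at 697 ± 58.2 and 1008 ± 154 TPM. B2m and H2-K1 thus lay close together in old basal cells and apart in old luminal cells on the TPM scale.

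Several genes that supply class I with peptide were higher in luminal cells too. Tap1, a subunit of the peptide transporter, was at 9.66, 7.05 and 7.77 against 47.9, 45.6 and 38.4 CPM (5.39-fold, adjusted p = 2.3e-05), and Tap2 at 25.8, 10.4 and 22.6 against 45.7, 59.9 and 33.3 CPM (2.37-fold). Psmb8, an immunoproteasome subunit, was at 6.27, 4.97 and 6.06 against 27.1, 26.7 and 32.3 CPM (4.98-fold, adjusted p = 0.00069). Psmb9, which shares a promoter region with Tap1, had no basal fragment and was at 6.82, 7.67 and 1.41 CPM in luminal libraries, at least 5.82-fold higher, a call lost in 3 of 19 other settings. Of the nonclassical heavy chains, H2-T23 was 2.03-fold higher, and H2-Q10 was at 1.02 to 2.26 against 60.9 to 80.5 CPM (40.9-fold). H2 genes resemble each other closely, so the split of reads among them by RSEM is uncertain.

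In all, 10 of 28 class I genes were higher in luminal cells (35.7%, against 15.7% of all tested genes) and 18 were not called. Their median log2 difference was 0.61, and over the 21 other settings 8 to 11 were higher. The uncalled genes included Nlrc5, the class I transactivator, at 5.94, 10.07 and 10.03 against 13.4, 13.0 and 4.19 CPM (adjusted p = 0.86), the proteasome activator Psme2, at 37.1 to 44.8 against 44.2 to 49.0 CPM, and H2-Q4, at 190 to 196 against 171 to 222 CPM. Tapbp, which holds class I at the transporter, was called at 1.25-fold higher and lost that call in 5 of 21 settings. MHC class II was low in both layers. None of the 10 class II genes tested in edgeR was called in either direction, 1 had an unadjusted p under 0.05, while DESeq2 called 1 higher and fragment-equivalent counts, which are the counts divided by the reads per fragment, 2 of 5. Cd74, the class II invariant chain, was at 4.48, 4.49 and 9.25 against 21.1, 34.2 and 20.03 CPM, without overlap (adjusted p = 0.11), and Ciita, the class II transactivator, was at 0, 0 and 0.277 CPM in basal and 0 in luminal libraries and was not tested.

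**Figure D3:**
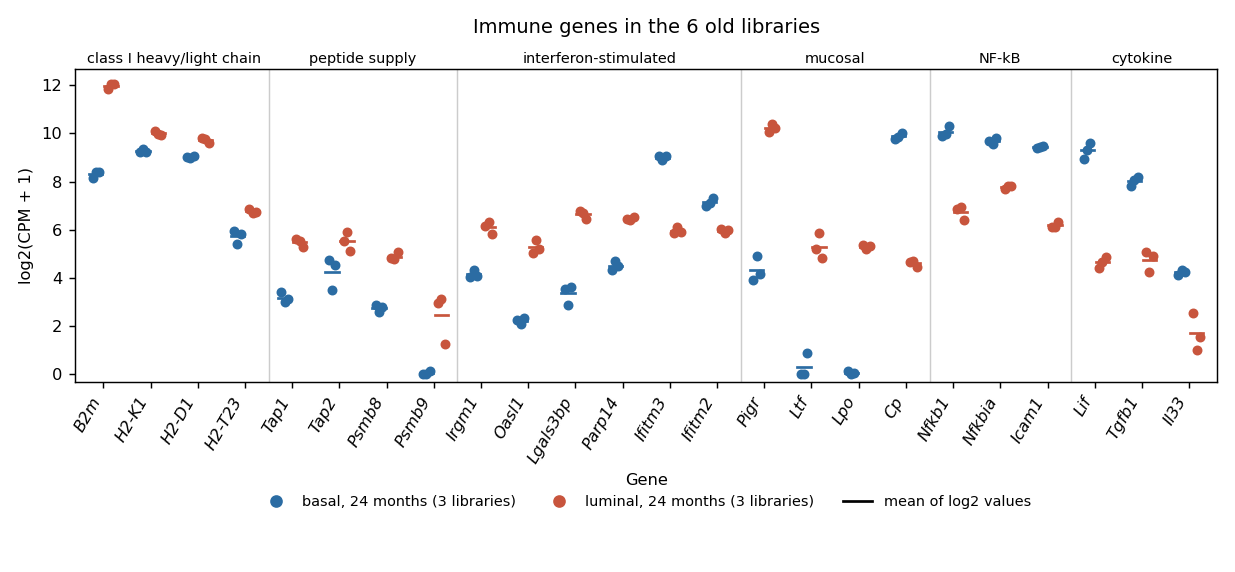
Level of 24 immune genes in the 6 old libraries as log2(CPM + 1), each point a library, bars the mean of the log2 values, blue basal and red luminal. The gap in B2m is wider than in H2-K1 or H2-D1, Pigr, Ltf and Lpo are luminal, and Ifitm3, Cp, Nfkb1, Icam1 and Lif are basal.

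The promoters of class I and interferon genes were searched because interferon acts on them through short elements. The RefSeq promoter table (GRCm38.p6) held 300 bases around the start, 250 of them upstream, for 27025 genes. The core of the interferon-stimulated response element (GAAA, any 2 bases, GAAA; either strand) was found in 3.99% of these genes, in 5 of 21 class I genes with a promoter in the table (23.8%) and in 24 of 46 interferon-stimulated genes (52.2%). Among all genes higher in old luminal cells it was found in 3.53%, and among those lower in 3.17%. Within the interferon-stimulated list it was found in 3 of the 10 genes that were higher in luminal cells and had a promoter in the table (30.0%). The gamma-activated site (TTC, any 3 bases, GAA; either strand) was in 9.55% of all promoters and in 1 of 9 higher class I genes, Psmb8, and the NF-kB motif (GGGA, any base, TTTCC; either strand) was in 0.466% and in 1 of these 9, B2m. A match describes the letters only and is not a site shown to work.

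To show what the matches look like in called genes, the 150 bases before the start are given for 2 class I and 2 interferon-stimulated genes, 5′ to 3′ along each gene, with the response element core in capitals. The call of Igtp, at 3.82, 4.44 and 4.44 against 25.9, 11.5 and 8.48 CPM (3.61-fold, adjusted p = 0.024), was lost in 6 of 20 other settings. B2m lies at chr2:122147537-122147686 on the plus strand, H2-T23 at chr17:36032702-36032851 on the minus strand, Irgm1 at chr11:48871421-48871570 on the minus strand and Igtp at chr11:58199406-58199555 on the plus strand.
B2m: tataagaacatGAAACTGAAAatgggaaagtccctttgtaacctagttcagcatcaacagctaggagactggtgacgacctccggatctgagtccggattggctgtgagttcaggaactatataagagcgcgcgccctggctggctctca
H2-T23: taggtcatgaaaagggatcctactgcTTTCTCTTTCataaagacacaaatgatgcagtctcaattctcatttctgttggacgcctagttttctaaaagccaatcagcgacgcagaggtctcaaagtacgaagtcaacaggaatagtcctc
Irgm1: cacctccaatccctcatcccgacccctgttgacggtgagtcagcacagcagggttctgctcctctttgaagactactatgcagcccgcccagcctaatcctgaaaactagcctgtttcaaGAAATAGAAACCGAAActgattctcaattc
Igtp: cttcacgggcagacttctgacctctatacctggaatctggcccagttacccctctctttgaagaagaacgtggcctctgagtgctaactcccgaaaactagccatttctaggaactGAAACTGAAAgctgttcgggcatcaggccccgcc
In B2m the core begins 139 bases before the start, on the gene's own strand, and an NF-kB match begins 126 bases before it. In Irgm1 a pair of cores overlap, beginning 30 and 24 bases before the start, and in H2-T23 the core is on the opposite strand.

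Interferon-stimulated genes leaned to the luminal side, at low levels for the genes given here except Ly6e. Ly6e was also called higher in luminal cells in all 21 other settings (log2 0.96 to 1.41), and its levels are given with the ages below. Of 60 interferon-stimulated genes tested, 14 were higher in luminal cells (23.3%) and 3 lower (5.0%), against 15.7% and 19.7% of all tested genes. The other 43 were not called, and the median log2 difference of the list was 1.38. Counts depended on the tool: DESeq2 called 25 of 60 higher and fragment-equivalent counts 28 of 50. Irgm1, an interferon-induced GTPase, was at 15.4, 19.4 and 15.9 against 70.9, 78.8 and 55.7 CPM (4.04-fold, adjusted p = 1.7e-05). Lgals3bp, a secreted lectin-binding glycoprotein, was at 10.7, 6.44 and 11.5 against 110, 104 and 86.5 CPM (10.5-fold), and Oasl1 10.3-fold higher. Parp9, Parp12 and Parp14 with their partner Dtx3l were each 3.999-fold to 6.85-fold higher, and the RNA sensor Ddx58 (RIG-I) was 2.54-fold higher. The best-known antiviral effectors were low and not called: Isg15 was at 4.95 to 5.61 against 5.99 to 10.2 CPM, Ifit1 at 6.03 to 13.8 against 9.72 to 13.9 CPM and Mx1 at 0 to 0.416 against 1.55 to 4.57 CPM.

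The Ifitm genes, whose membrane proteins block virus entry, and Gbp5 were exceptions. Gbp5 was called lower in luminal cells, a call lost in 13 of 19 other settings. Ifitm3 was at 526, 480 and 527 CPM in basal and 56.8, 68.2 and 59.1 CPM in luminal libraries, with a wide gap between the layers (8.32-fold lower, adjusted p = 1.2e-10), and Ifitm2 was 2.30-fold lower. Of 27 interferon signalling genes, 7 were higher (25.9%) and 5 lower (18.5%), against 15.7% and 19.7% of all tested genes. The median log2 difference of that list was 0.09, and it was -0.11 on TPM. Stat2 (6.29-fold) and Ifngr2 (3.19-fold) were higher, while Stat3 (2.67-fold), Jak1 (2.30-fold), Ifnar1 (2.096-fold) and Socs3 (3.32-fold) were lower in luminal cells. Irf1, a mediator of the interferon gamma response, was at 22.6, 29.4 and 23.6 against 27.2, 56.5 and 35.2 CPM (adjusted p = 0.092).

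NF-kB genes were mainly basal, with 12 of 23 lower in luminal cells (52.2%) and 4 higher (17.4%). Over all tested genes the shares were 19.7% lower and 15.7% higher. Nfkb1 was at 941, 1001 and 1255 against 116, 122 and 83.3 CPM (9.93-fold lower, adjusted p = 7.9e-09), and the inhibitor gene Nfkbia, itself induced by the pathway, was 3.76-fold lower. Icam1, the leukocyte adhesion ligand, was at 671, 685 and 708 against 68.3, 68.9 and 80.2 CPM (9.49-fold lower, adjusted p = 1.2e-10). Bcl3 (1.87-fold) and Sod2 (1.63-fold) were higher in luminal cells. Among 44 cytokine and receptor genes, 15 were lower (34.1%) and 3 higher (6.82%). Lif was at 491, 640 and 778 against 20.2, 24.4 and 28.3 CPM (26.2-fold lower), Tgfb1 was 9.78-fold and the alarmin Il33 6.91-fold lower, and the receptor genes Lifr (9.55-fold) and Il1r1 (5.65-fold) were higher. For the LIF pathway the ligand was therefore highest in basal and the ligand-specific receptor in luminal cells, with the shared subunit Il6st 2.69-fold lower in luminal cells. Il18 had at most 1.30 CPM in any of the 6 libraries, and Cd274 (PD-L1) was at 4.005 to 5.69 against 0 to 4.36 CPM (adjusted p = 0.71).

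Chemokine genes gave 7 of 20 lower (35.0%) and 3 higher in luminal cells. Cxcl10 was at 48.3, 99.6 and 108 against 4.64, 4.57 and 14.2 CPM (10.9-fold lower) and Cxcl12 14.8-fold lower, while Cxcl17, a mucosal chemokine, was at 0.707, 1.43 and 1.67 against 92.6, 97.5 and 58.0 CPM (65.3-fold higher). Of 27 pattern recognition genes, 8 were higher (29.6%, against 15.7% of all tested genes) and 4 lower (14.8%, against 19.7%). Between 2 and 12 of them were called higher in the other settings. Casp4, the sensor of cytosolic lipopolysaccharide, was at 117, 104 and 98.5 against 14.7, 17.5 and 20.3 CPM (6.09-fold lower), and Tirap 3.62-fold higher. Tlr2 overlapped, at 6.80 to 8.23 against 1.93 to 13.6 CPM (adjusted p = 0.93).

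Mucosal defence genes were mostly luminal, some of them by wide gaps. Of 24 tested genes, 13 were higher (54.2%) and 2 lower (8.33%), against 15.7% and 19.7% of all tested genes. Pigr, the receptor that carries IgA into the lumen, was at 13.9, 29.0 and 16.8 CPM in basal and 1078, 1323 and 1186 CPM in luminal libraries (60.03-fold, adjusted p = 3.3e-06). Lactoperoxidase (Lpo) and the membrane mucin Muc4 had no basal fragment and were at least 42.1-fold and 77.3-fold higher. Ltf, lactoferrin, was at 0, 0 and 0.832 against 35.9, 57.0 and 27.2 CPM (adjusted p = 0.0026), and Defb1, a constitutive beta-defensin, was 6.17-fold higher. The exceptions were Cp, the copper carrier ceruloplasmin, at 881, 922 and 1028 against 24.7, 25.3 and 21.2 CPM (39.8-fold lower, adjusted p = 8.2e-08), and Chil1, at 1.06 to 3.51 CPM in basal and no fragment in luminal cells, a call lost in 9 of 19 settings. Lcn2, the siderophore binder of mucosal inflammation, was high in both layers, at 377, 353 and 338 against 273, 317 and 302 CPM (log2 -0.26 ± 0.11 SE, adjusted p = 0.076).

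Complement genes were mostly uncalled, with 2 of 19 higher (10.5%) and 1 lower (5.26%). Both shares were below those of all tested genes (15.7% and 19.7%). C1rb, a serine protease of the C1 complex type, was at 2.87, 7.79 and 4.07 against 628, 509 and 677 CPM (123-fold, adjusted p = 1.0e-06), and Cd55, which protects cells from complement, was 6.21-fold higher. C3 was at 7.92, 17.7 and 36.8 against 11.8, 19.4 and 19.5 CPM and overlapped (adjusted p = 0.63). In the list of ligands for immune cells, 5 of 20 were higher (25.0%) and 1, Icam1, was lower (5.0%). Lgals9, a galectin that binds T cell receptors of the checkpoint kind, was at 1.98, 2.45 and 3.14 against 108, 231 and 142 CPM (63.6-fold, adjusted p = 1.4e-08), and Cd47, the signal that restrains phagocytes, was 6.70-fold higher.

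Markers of other cells were counted beside these results. Ptprc (CD45) had no read in the 3 basal libraries and 1.67, 0 and 0 CPM in the luminal ones, and 18 and 19 of 22 T and NK cell genes had no read in basal and luminal cells. The summed leukocyte list was at 15.7 to 24.8 CPM in basal and 345 to 498 CPM in luminal libraries, of which Cd52 alone made 324, 485 and 334 CPM in luminal libraries; 4 and 5 of its 12 genes had no read. The myeloid list was at 19.1 to 30.7 and 12.9 to 25.6 CPM, with 10 of 19 genes at 0 in each layer. Of its 10 tested genes, Lyz2 (0 to 0.0462 against 4.01 to 5.24 CPM) and Itgam (0 to 0.204 against 2.42 to 8.35 CPM) were called higher and Cd68 (14.2 to 26.7 against 3.35 to 8.77 CPM) lower in luminal cells, calls lost in 7 of 19, 11 of 19 and 5 of 20 other settings. Of the leukocyte list, Cd52 and Ikzf1 (0 to 0.283 against 7.58 to 10.4 CPM) were called higher, in all 20 other settings. The fibroblast list was at 1290 to 1440 against 101 to 240 CPM, mostly Dcn. Of its 18 tested genes, 2 were higher in luminal cells (11.1%) and 3 lower (16.7%), against 15.7% and 19.7% of all tested genes. The higher ones were Col6a3, in all 21 other settings, and Lum, a call lost in 8 of 18. Col1a1, Col1a2 and Col3a1 were under 20 CPM in each library and not called. The smooth muscle list was at 2150 to 2330 against 42.8 to 111 CPM, mostly Smtn and Tpm2. Of its 12 tested genes, 5 were lower in luminal cells (41.7%, against 19.7% of all tested genes) and 7 were not called. The contractile genes Cnn1 and Tagln were lower, also in every other setting they could be tested in. Myl9 was lower too, a call lost in 3 of 20 other settings. Acta2 (21.1, 27.8 and 52.2 against 24.4, 0.210 and 11.8 CPM) and Myh11, also contractile, were not called. The B cell and plasma cell list was almost all Sdc1, a syndecan that basal epithelium also carries, with 10 and 9 of 13 genes at 0 reads. The endothelial list was at 69.7 to 102 against 18.8 to 33.6 CPM, all 14 of its genes having reads in basal cells and 3 having none in luminal cells. The erythroid list was at 5.84 to 18.6 against 28.1 to 64.5 CPM. The part of these other cells in the layer differences was not tested.

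**Figure D4:**
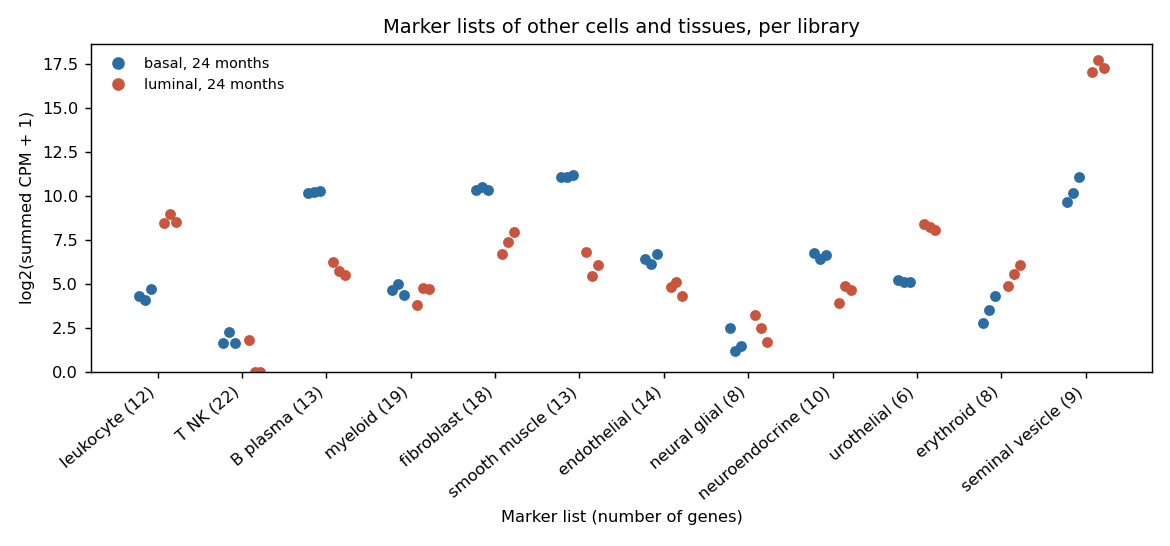
Summed level of 12 marker lists of other cells and tissues in the 6 old libraries, as log2(summed CPM + 1), each point a library, blue basal and red luminal, with the number of listed genes found in the tables in brackets. T and NK cell lists are near 0 in both layers, fibroblast, smooth muscle and endothelial sums are higher in basal libraries, and the seminal vesicle sum is higher in luminal libraries.

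Seminal vesicle proteins summed to 133000 to 219000 CPM in luminal and 812 to 2180 CPM in basal libraries, mainly Svs2 and Svs5, and all 9 tested were called higher. Luminal replicate 2 stood apart in several of them: Svs1 was at 272, 7183 and 43.6 CPM in luminal libraries, and its log2 difference of 9.62 became 5.70 without that library, with the call kept.

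The genes with the largest differences, among called genes at 50 CPM or more in 1 layer with no overlap, were in good part outside the lists. On the luminal side they were, beside Svs1, Svs3a, Svs6, Sva, Spinkl and Ceacam10 of the seminal vesicle kind, Muc4 and Defb42, a pair of proton pump genes and several enzymes and membrane proteins. Atp6v1g3 and Atp6v1b1, subunits of the proton pump, were at 60.7, 74.6 and 73.2 and at 81.4, 50.8 and 114 CPM in luminal cells and at or under 0.740 CPM in every basal library. Cyp4a12a, a fatty acid hydroxylase of androgen-exposed tissue, was 224-fold, and 9530003J23Rik 191-fold higher, and Mansc1 was at 50.9 to 63.1 against 0.0408 to 0.786 CPM. Ren2, a renin gene, had no basal read and was at least 95.4-fold higher, with reads that cannot be assigned with certainty because Ren1 is a near-identical copy. C57BL/6 mice are usually described as carrying Ren1 alone, and Ren1 was at 3.11, 3.02 and 8.51 CPM in basal and 690, 505 and 801 CPM in luminal libraries; whether the Ren2 value holds Ren1 reads was not tested.

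On the basal side, the genes with the largest differences included adhesion and neural receptor genes. Bai1, an adhesion G protein-coupled receptor, was at 247, 219 and 299 CPM in basal cells and at least 165-fold lower in luminal cells (adjusted p = 1.1e-09). Sdk2 and Tenm2, cell adhesion proteins best known from synapses, were at least 44.5-fold and 39.0-fold lower, Btbd11 at least 34.8-fold and Plekhh2 at least 35.7-fold lower. Lgals7, a galectin of stratified epithelium, was at 176, 243 and 204 against 0.0397, 1.93 and 0 CPM, and Moxd1, Hunk, Cyp2s1 and Col23a1 were each above 45 CPM in all basal and under 1.40 CPM in all luminal libraries. The pseudogene Tmem181c-ps was at least 33.0-fold lower, and Col17a1, Krt5, Krt14 and Tpm2 completed the group.

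The 3-month libraries, none of them shared with the comparison at 24 months, gave 5341 called genes between the layers (37.6%). Of the 5028 genes called at 24 months, 4049 were called in the same direction at 3 months and 5 in the opposite one. A test of the difference between the ages (luminal minus basal at 24 months, minus the same at 3 months) called 116 genes (0.817% of 14201), 60 of them with a larger luminal-minus-basal value at 24 months (0.423%) and 56 with a smaller one (0.394%). Among 764 listed genes, 26 were called. Without luminal young replicate 3 the count over all genes was 54 instead of 116, and without basal young replicate 2 it was 172.

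Several adhesion and matrix genes had a higher luminal-minus-basal value at 24 months. Bcam, a laminin receptor, had a log2 difference of -4.29 at 3 months and -3.02 at 24 months (difference 1.27 ± 0.16 SE, adjusted p = 0.0037), with means of 25.2 and 58.0 CPM in young and old luminal cells. Col17a1 was called as well, with basal means of 1091 and 635 CPM at 3 and 24 months and luminal means of 0.799 and 2.42 CPM. The first luminal mean is under the limit of 1.21 CPM for that group, so the size of the Col17a1 difference depends on the prior count. Its call was lost on fragment-equivalent counts (adjusted p = 0.425). Fn1 changed sides, from -0.99 to 1.24 (difference 2.23 ± 0.38 SE, adjusted p = 0.017): it was at 102.4, 79.5 and 93.1 CPM in young and 13.4, 19.9 and 19.2 CPM in old basal cells, and at 52.6, 29.7 and 56.1 and 32.6, 38.1 and 53.2 CPM in luminal cells. The young and old luminal libraries of Fn1 overlapped, and the basal ones did not. Ctgf (2.04), the matrix gene Smoc2 (2.66) and the cation channel gene Trpv4 (3.76) also had smaller gaps at 24 months, and their calls held in all 20 other settings, as did those of Bcam and Fn1.

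Of the immune genes, Ly6e and B2m had larger differences at 24 months. Ly6e, an interferon-stimulated surface protein, had a log2 difference of 0.34 at 3 months and 1.14 at 24 months (difference 0.81 ± 0.11 SE, adjusted p = 0.0063, kept in all 20 settings); its means were 1136 and 1019 CPM in young and old basal and 1434 and 2250 CPM in young and old luminal cells. B2m went from 2.96 to 3.65 (difference 0.69 ± 0.15 SE, adjusted p = 0.049), a call that 10 of 20 settings lost, and its means were 356 and 320 CPM in basal and 2765 and 4021 CPM in luminal cells. Lgals9 went from 3.92 to 5.99, lost in 9 of 20 settings, and Icam1 went from -3.96 to -3.25, lost in 10. Irgm1, which was 0.52 at 3 months and 2.01 at 24 months, did not pass this test (adjusted p = 0.071), nor did H2-K1 (0.88) or Tap1 (0.22).

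Other genes had a lower luminal-minus-basal value at 24 months. Cxcl17 had no read in the 3 young basal libraries, and its luminal mean was 18.7 CPM at 3 months and 82.7 CPM at 24 months, and the size of its fitted difference of -5.72 depends on the prior count, since TPM gave 0.10 in the other direction. The nuclear RNA Neat1 was at 69.5, 95.8 and 68.9 CPM in old and 19.8, 24.6 and 36.8 CPM in young basal cells, and its luminal excess fell from 4.85 to 2.81 (adjusted p = 0.0063, kept in all 20 settings). Vmp1, an autophagy gene, was at 173, 172 and 120 CPM in old and 48.1, 54.6 and 53.5 CPM in young basal cells, and its excess in luminal cells of 1.51 at 3 months was -0.27 at 24 months (adjusted p = 0.0037). Jun moved in the same way, at a basal mean of 1137 CPM at 3 months and 2190 CPM at 24 months, against 1059 and 1180 CPM in luminal cells (difference -0.79 ± 0.13 SE, adjusted p = 0.017), a call lost in 4 of 20 settings.

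**Figure D5:**
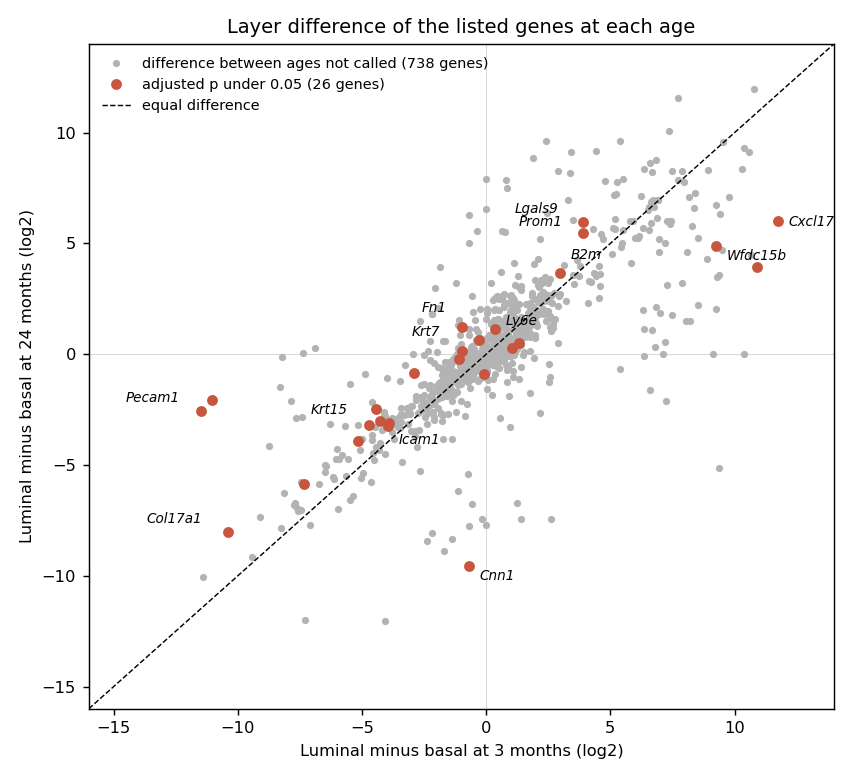
Luminal minus basal log2 difference of 764 listed and tested genes at 3 months (horizontal) and at 24 months (vertical), from libraries that the 2 axes do not share; the dashed line marks equal differences and red points are the 26 genes whose difference changed with age at an adjusted p under 0.05. Fn1 lies on opposite sides of 0 at the 2 ages, and B2m, Ly6e and Lgals9 lie above the line.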

How the data were processed

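Per the labels' protocols, sorted basal and luminal cells of the prostate went through RNeasy Mini extraction and KAPA Stranded mRNA-Seq library preparation. Per the submitters' processing notes, bcl2fastq 2.17, Bowtie2 2.1.0, RSEM 1.2.15 and mm10 were used. Each deposited RSEM table holds 1 library's expected counts. Its deposited TPM served for levels between genes, and its deposited FPKM were not used. The strand setting is not given in the sources used here.

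Expected counts were rounded and filtered with filterByExpr (minimum count 10, total 15), which kept 14201 genes. A quasi-likelihood model in edgeR 4.0.16 (R 4.3.3) with TMM scaling and a mean for each group took in the whole set of 12 libraries, with 8 residual degrees of freedom, so that the young libraries share in the estimate of the spread. Luminal minus basal at 24 months and its difference from that at 3 months were tested with Benjamini-Hochberg adjustment over all tested genes. Standard errors come from the fit, and SD are over 3 libraries. Distinct fragments were estimated from genes longer than 500 bases. These genes had at least 8 reads in 1 library, none in the others of its group and reads in at most 3 libraries of other groups. A group has no fragment where each library's reads round to 0 fragments; folds against it are lower bounds at 3 fragments, and other means under that limit get no fold. The fit was also run on simulated counts with a smaller spread than these data and without reads in multiples. That run therefore cannot show how the fit behaves on these counts.

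The 40 gene lists (934 genes, 921 in the tables, 764 tested) and the members were chosen with earlier results of these data known. Named genes are the 15 largest differences in each direction (called, no overlap, at least 50 CPM in the higher layer), up to 5 called genes per list by smallest p, fixed genes, other list members with their values, and the 10 largest differences between ages in each direction. Alternatives were DESeq2 1.42.0, RLE and upper quartile factors, limma 3.58.1 on log2(TPM + 1), a 20 CPM filter, no filter, fragment-equivalent counts, the 6 old libraries alone, a replicate block and leaving out each library. The promoter sequences are RefSeq's for GRCm38.p6, which matches mm10. Some genes that these rules select are not reported here.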

Additional observations from a re-analysis of the deposited data

Results flagged for a closer look

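For 40 of the genes named by the rules or held in the lists, the layer difference itself differed between ages, by the test of luminal minus basal at 24 months minus the same at 3 months (edgeR, adjusted p under 0.05). All values below are these log2 differences.

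Among identity and junction genes, the value was 1.55 for Krt15, 1.13 for Krt7, 1.53 for Prom1, 2.38 for Col17a1, 1.27 for Bcam, 1.52 for Lamb3, 0.82 for Agrn, 2.23 for Fn1, 0.90 for Plec and 1.94 for Pmepa1. Secreted or luminal genes gave -6.97 for Timp4, -4.36 for Wfdc15b, -5.41 for Prr15l and -3.05 for Bmpr1b.

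Immune genes gave 0.69 for B2m, 0.81 for Ly6e, 0.92 for Jak2, 0.72 for Icam1, 2.07 for Lgals9 and -5.72 for Cxcl17. Early response genes gave 1.23 for Dusp6, 2.04 for Ctgf, -0.79 for Jun, -0.76 for Atf3 and -0.84 for Btg2.

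Other genes with a higher value at 24 months were Trim29 (3.88), Trpv4 (3.76), Fam101b (3.42), Smoc2 (2.66), Ccdc3 (2.32) and Vdr (2.31). Other genes with a lower value were Plekhh2 (-3.93), Chac1 (-4.49), Tgoln2 (-2.41), Neat1 (-2.04), Vmp1 (-1.78) and Rgs2 (-1.74).

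Sox2 (8.97), Pecam1 (8.90) and Cnn1 (-8.86) had a group without reads. These and Plekhh2, Col17a1, Cxcl17, Trim29, Fam101b, Prr15l, Chac1, Wfdc15b, Bmpr1b and Timp4 had a group mean under the 3-fragment limit, so their sizes depend on the prior count. Of the 40 calls, 8 held in all 20 other settings (Bcam, Ly6e, Trpv4, Smoc2, Fn1, Ctgf, Neat1 and Vmp1), and 32 were lost in at least 1.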

How the results depend on the processing

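The 24-month counts stayed within 1.5 times in all 21 other settings. Calls ranged from 4248 to 5285 with 1 library left out, higher genes from 1858 to 2435 and lower genes from 2384 to 2850. RLE and TPM scaling shifted the median of all genes by 0.13 and -0.15, so folds near 1.1 depend on it. Single genes moved further. With the 20 CPM filter, the log2 difference of Lcn2 went from -0.26 to 0.0076 and that of Ifngr1 from -0.19 to 0.0759. Over the 21 other settings, H2-D1 ranged from 0.50 to 0.98 and Krt18 from 0.41 to 0.89, so the size of small folds depends on the processing. Of 417 called genes checked singly, 352 kept their call in every setting they could be tested in, 65 lost it somewhere and none reversed. The common biological coefficient of variation was 0.797 on counts (14201 genes) and 0.117 on fragment-equivalent counts (11206 genes, with another filter). Under the 3-fragment limits no fold is given except as a lower bound. The log2 differences between ages listed above include genes under these limits, and those sizes depend on the prior count.

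Counts of genes whose layer difference differed between ages moved more. DESeq2 called 630 (341 higher, 289 lower), a 20 CPM filter 105 higher and 30 lower, fragment-equivalent counts 122 and 36, no filter 99 higher, TPM 37 lower and the replicate block 37 lower. With 1 library left out, 54 to 172 genes were called, 29 to 85 higher and 25 to 118 lower, and the lowest counts came without luminal young replicate 3. Plekhh2 (0.20) and Cxcl17 (0.10) reversed on TPM.

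Uncalled genes reversed on TPM (Krt7 to -0.082, Nlrc5 to -0.0473, Tlr2 to -0.312), with the 20 CPM filter (Ifngr1 to 0.0759, Lcn2 to 0.0076) and with the replicate block (Il18 to 0.66, Tlr2 to -0.25). With 1 library left out, Nlrc5 ranged from -0.0143 to 0.60, Tlr2 from -0.46 to 0.57, C3 from -0.66 to 0.40 and Il18 from -2.01 to 5.31. List medians ranged from -0.54 to 0.0149 for mesenchymal factors, -0.49 to 0.17 for proliferation, -0.71 to 2.64 for myeloid, -0.80 to 0.28 for fibroblast and -0.11 to 2.81 for neural and glial genes; fibroblast was also at 0.20 without luminal old replicate 1. The myeloid median was -0.97 with the 6 old libraries alone, and that of interferon signalling -0.11 on TPM. The causes were not tested.

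Replicate numbers are not stated to pair libraries. Same-numbered old libraries correlated at 0.055, 0.158 and 0.159 in their deviations from the group means, each best with its own number. Among the young libraries only replicate 3 did so (0.0518). Replicate 1 was at -0.0199, and luminal replicate 2 was at 0.0156 with basal replicate 2 and 0.0158 with basal replicate 1. The replicate block gave 4685 calls at 24 months against 5028.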
